A study of Mus musculus with 26 samples.

Results

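The genes described are those of the clathrin coat, its plasma membrane adaptor AP2, dynamin and the endophilins, and 10 of them were chosen by name: Cltc, Clta, Cltb, Ap2a1, Ap2a2, Ap2b1, Ap2m1, Dnm1, Sh3gl1 and Sh3gl2. Of these, 8 were listed in each of the 3 deposited tables, which hold 8576, 8576 and 9561 transcripts. The symbols Cltb and Ap2a2 were listed in none of the 3 tables.

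In clathrin-mediated endocytosis, AP2 gathers cargo and clathrin at the plasma membrane, clathrin heavy and light chains assemble into a curved lattice, and dynamin pinches off the coated vesicle. Endophilins bind curved membrane at the vesicle neck and recruit dynamin and the phosphatase synaptojanin, which helps to shed the coat. In neurons this route retrieves synaptic vesicle membrane after release, and endophilin A1 is a known substrate of the LRRK2 kinase.

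Ribosome footprints and RNA-Seq reads were measured in dorsal striatum of C57BL/6 mice aged 3 months, each library made from a pool of 3 mice of mixed sex. GS LRRK2 TG mice carried a G2019S LRRK2 transgene and GS/DA LRRK2 TG mice a G2019S/D1994A transgene whose kinase is dead, both from high copy lines under a CaMKII-tTA driver, active in forebrain neurons, that doxycycline held off until weaning. Both were set against the non-TG control group, and LRRK2 KO mice, in which the gene is knocked out, against WT mice. The labels name 3 footprinting and 3 RNA-Seq samples of the non-TG control, 2 and 2 of each transgenic group, and 3 footprinting and 2 RNA-Seq samples each of WT and LRRK2 KO.

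The deposited values are normalized reads in the coding sequence, averaged over the libraries of a group. In 10 of 12 such columns the mean fell on whole reads of 2 libraries, so that each library could be read back. Where the labels name 3 samples, the tables and labels do not state which of them these 2 libraries are. For WT and LRRK2 KO the paper describes a further striatal profiling experiment apart from the first. The libraries are named by sequencing depth as the shallower and the deeper library, because the columns carry no replicate numbers. For footprinting the recovered reads were 9283157.0 and 15130385.0 in the non-TG control of the GS/DA table, 8109962.0 and 19101458.0 in GS/DA LRRK2 TG, and 7485949.0 and 8547215.0 in GS LRRK2 TG. For RNA-Seq they were 11722909.0 and 12190419.0, 11323443.0 and 13844048.0, and 8692455.0 and 14500251.0 in the same groups. The libraries of the knockout table were smaller. They held 3117475.0 and 5287822.0 footprint reads in WT, 2902847.0 and 6116153.0 in LRRK2 KO, and for RNA-Seq 3165240.0 and 7592205.0 in WT and 4577499.0 and 10935366.0 in LRRK2 KO. The control libraries of the GS table could not be recovered, and for the GS comparison control means are given and no test was run, also not against the control libraries of the GS/DA table.

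Translational efficiency (TE) is the log2 ratio of footprint mean to RNA-Seq mean, and a TE difference is that of the genotype minus that of its control. Each TE difference was expressed as a z score from the mean and SD of its table, all transcripts included, with TE up at 1.5 or above and TE down at -1.5 or below. A z score has no p-value. Levels are in normalized reads per transcript, and the 3 tables were normalized separately. Levels of the 8 genes are set against each other only after division by the coding length in kb.

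Lrrk2, the targeted gene, checked the labels. Its footprints were 690.1 and 400.3 in the shallower and deeper WT library and 149.7 and 102 in the LRRK2 KO libraries, so that both KO libraries lay below both WT libraries. Its RNA-Seq reads were 733 and 1278 in WT and 270.0 and 423 in LRRK2 KO, so that part of the Lrrk2 signal remained in both assays. In the GS/DA table Lrrk2 footprints were 1224 and 1445 in the non-TG control and 4766 and 7267 in GS/DA LRRK2 TG. In GS LRRK2 TG they were 7052 and 3320.5 beside a control mean of 2524. The footprints thus followed the labels in the knockout and GS/DA tables. In the GS table both GS libraries lay above the control mean, but the single control libraries are not known. Lrrk2 RNA-Seq reads did not separate the transgenic groups, with 560.2 and 5233 in the non-TG control, 5038 and 404 in GS/DA LRRK2 TG, and 214 and 3549.6 in GS LRRK2 TG beside a control mean of 2105. Of 11 striatal neuron markers, 10 were listed in each table, with Ppp1r1b the one with most reads in every group mean and Penk1 not listed. Their footprints summed to 30296 in WT and 31435 in LRRK2 KO, to 142436 in the non-TG control and 115106 in GS/DA LRRK2 TG, and to 98524 in GS LRRK2 TG beside 106329.8 in its control.

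The recovered RNA-Seq libraries of the transgenic tables were of 2 kinds, and each of the 3 recovered groups held 1 of each. Cltc RNA-Seq was 3399.7 in the shallower and 14635 in the deeper non-TG control library, 17085 and 2898 in GS/DA LRRK2 TG, and 1670.5 and 12605 in GS LRRK2 TG. Ap2a1 ran the other way, with 8999 and 1882, 2082 and 10329.8, and 10527 and 1932 in the same libraries. Libraries with high Cltc had high Clta and low Ap2a1, Dnm1, Sh3gl1 and Sh3gl2, in the control of the GS/DA table as in both transgenic groups. Ap2b1 was nearly level, with 3762, 4237, 4498 and 3903 in the 4 libraries of the GS/DA table. Leaving out 1 RNA-Seq library of these groups leaves 1 kind. The kinds behind the control mean of the GS table are not known.

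Per kb of coding sequence, the AP2 medium chain Ap2m1 carried the most footprints of the 8 genes in both transgenic tables, at 7990.3 in the non-TG control of the GS/DA table. Dnm1, the dynamin of neurons, followed at 6145. The clathrin heavy chain Cltc stood at 5335 and the light chain Clta at 5328, a pair whose libraries overlapped. The AP2 large subunits came next, with 3059 for the beta subunit Ap2b1 and 2256 for the alpha subunit Ap2a1. Endophilin A1, encoded by Sh3gl2, was at 2123 and overlapped Ap2a1, while endophilin A2, encoded by Sh3gl1, was lowest at 509. The other neighbours in that order did not overlap.

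In WT the top 3 were Dnm1 at 2872, Cltc at 2746 and Ap2m1 at 2620.4 footprints per kb, and their libraries overlapped. Clta stood at 1648 and Ap2b1 at 1291, followed by Sh3gl2 at 1021, Ap2a1 at 852 and Sh3gl1 at 159. Each of these but Sh3gl1 overlapped its neighbour, and Ap2m1 and Clta did not overlap. The WT libraries of Cltc, at 1681 and 3811 per kb, overlapped those of Clta as well, at 1583 and 1713. Of the endophilins, Sh3gl2 over Sh3gl1 was 4.17 in footprints per kb in the non-TG control of the GS/DA table and 6.43 in WT, with 3.70 and 4.74 in the single libraries of that control and 6.88 and 5.88 in those of WT.

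**Figure D1:**
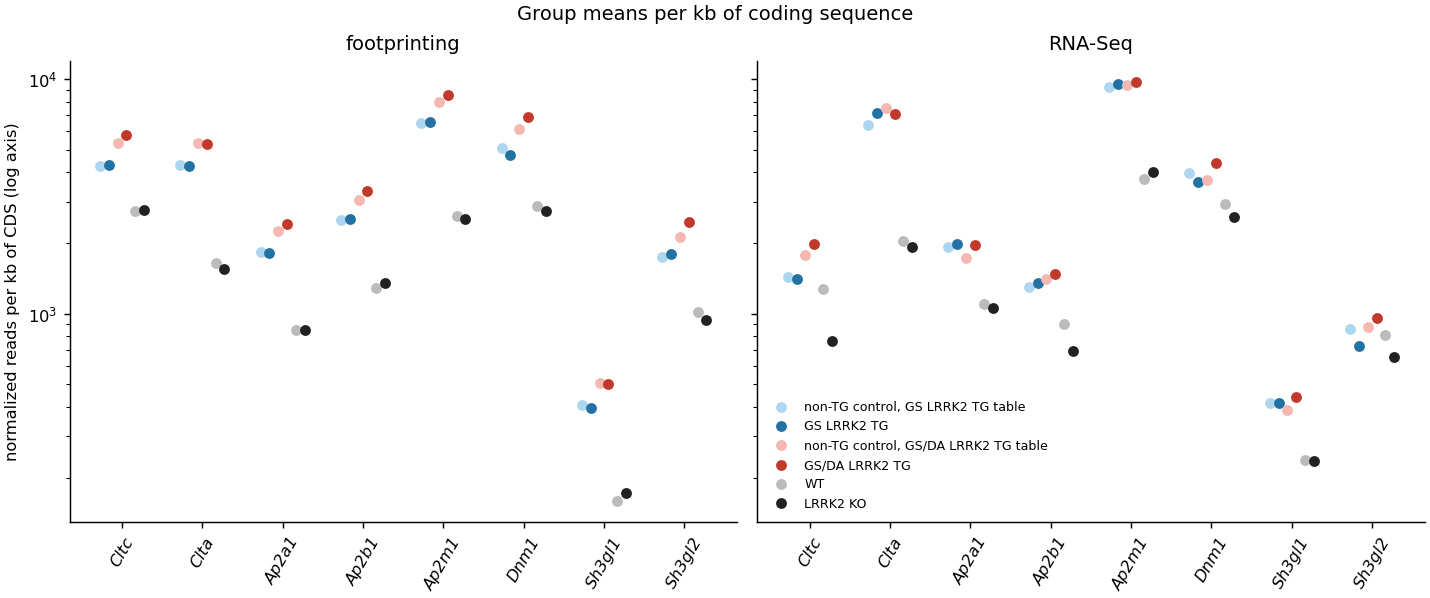
Group means of footprints and of RNA-Seq reads per kb of coding sequence for the 8 genes, on a log axis in normalized reads per kb, with 1 point for each group of each table. Sh3gl1 is lowest in each group and assay, and the tables, each normalized on its own, differ in level.

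Cltc over Clta per kb was 1.00 in footprints and 0.237 in RNA-Seq in the non-TG control of the GS/DA table, and 1.67 and 0.620 in WT. In single libraries, shallower first, it was 0.820 and 1.22 in footprints and 0.116 and 0.312 in RNA-Seq of that control, and 2.41 and 0.981 and then 0.763 and 0.435 in WT. The ratio thus lay on both sides of 1 in footprints of both controls and below 1 in each RNA-Seq library. Control TE of Cltc was 1.11 in WT, above that of 99.9% of transcripts, and 1.58 in the non-TG control of the GS/DA table, above 97.9%. Control TE of Clta was -0.31 and -0.50. Ap2b1 and Sh3gl2 had control TE of 0.52 and 0.33 in WT, above 98.9% and 96.8% of transcripts. Against single RNA-Seq libraries of the non-TG control of the GS/DA table, the log2 ratio of the Cltc footprint mean was 2.99 for the shallower, above 97.8% of transcripts, and 0.88 for the deeper, above 77.5%. Against those of WT it was 0.64, above 99.4%, and 1.82, above 99.9%.

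The knockout comparison asks what changes in striatal translation when Lrrk2 is knocked out. Of the 8 genes, 2 were TE up, Cltc and Ap2b1, beside 6.23% of all 9561 transcripts, and 0 were TE down, beside 6.02%. Both had footprint means close to WT and lower RNA-Seq means in LRRK2 KO, and for both the shallower WT RNA-Seq library was the highest of the 4. Bulk striatum was measured, so fewer cells of a kind and less RNA per cell cannot be told apart.

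Cltc, the heavy chain that forms the legs of the clathrin triskelion, lies on chromosome 11 from 86507853 to 86571067 on the minus strand (mm9). Its footprints were 19277 in the shallower and 8502 in the deeper WT library, and 17734 and 10201 in LRRK2 KO. The shallower library of each genotype was the higher, and the groups overlapped. Its RNA-Seq reads were 8909 and 3931 in WT and 3731 and 3987 in LRRK2 KO. The shallower WT library was high and the other 3 lay close together. The footprint change was 0.0081 and the RNA-Seq change -0.73 on the log2 scale, lower than that of all but 0.586% of transcripts. TE of Cltc was 1.11 in WT and 1.86 in LRRK2 KO, a difference of 0.74 with a z score of 2.65, rank 89 of 9561 from the highest. The SD between libraries of that difference was 0.93, larger than the difference.

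Without the shallower WT RNA-Seq library the TE difference of Cltc was 0.03 (z score 0.155). Leaving out the deeper WT footprinting library gave 0.27 (z score 0.315) and leaving out the shallower KO footprinting library 0.29 (z score 0.556), and in each of these 3 cases Cltc was not TE up. It stayed TE up when any of the other 5 was left out, with a difference of 1.45 without the shallower WT footprinting library and 1.22 without the deeper WT RNA-Seq library. Libraries of WT and LRRK2 KO could be matched into pairs A and B, since their differences within a group ran alike in both groups. The RNA-Seq change of Cltc was -1.25 in pair A and 0.02 in pair B. With footprints of pair A its TE difference was 1.13 against RNA-Seq pair A and -0.14 against RNA-Seq pair B, and with footprints of pair B 1.52 and 0.24.

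Markers of other cells differed between the same libraries. The 6 of 6 listed astrocyte markers, led by Aldoc, summed in RNA-Seq to 12088 in the shallower WT library, 8782 in the deeper, and 9366 and 8754 in LRRK2 KO, highest in the library where Cltc was highest. In footprints they summed to 5031 and 9778 in WT and 4444 and 10194 in LRRK2 KO, lower in the shallower libraries, where Cltc footprints were higher. The 5 microglia markers, led by Csf1r, summed to 87.9 and 629 footprints in WT and 99.3 and 727 in LRRK2 KO, and to 992 and 402 RNA-Seq reads in WT and 1351 and 417 in LRRK2 KO, higher there in the shallower libraries. The 5 cortical projection neuron markers summed in RNA-Seq to 4745 and 2610 in WT and 4115 and 2030 in LRRK2 KO. They were highest in the library where Cltc was highest, and lower in LRRK2 KO between libraries of like depth. In footprints they summed to 1945 and 2874 in WT and 2137 and 2379 in LRRK2 KO, lower in the shallower libraries. The part of these differences in the values of Cltc was not tested.

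Ap2b1, the beta subunit through which AP2 binds clathrin, lies on chromosome 11 from 83115985 to 83218537 on the plus strand. Its footprints were 4788 and 2580.0 in WT and 4852 and 2823 in LRRK2 KO, again higher in the shallower library of each genotype and overlapping. Its RNA-Seq reads were 3116 and 2037 in WT and 1848 and 2119.8 in LRRK2 KO, with the shallower WT library above the other 3. The TE difference was 0.44 and its z score of 1.53 lay just over the cutoff. Without the shallower WT RNA-Seq library the TE difference was 0.10, without the deeper WT footprinting library 0.06 and without the shallower KO footprinting library -0.0069. The value was 0.95 without the shallower WT footprinting library, 0.77 without the deeper KO footprinting library and 0.71 without the deeper WT RNA-Seq library. Leaving out the shallower KO RNA-Seq library gave 0.34 and the deeper 0.54. Of these 8 cases, Ap2b1 was TE up in the 2 without the shallower WT or the deeper KO footprinting library. Within library pairs the TE difference was 0.77 and -0.04 for footprints of pair A and 0.88 and 0.07 for those of pair B.

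Clta, a light chain that binds the heavy chain leg, had footprints of 1178 and 1275 in WT and 1094 and 1206 in LRRK2 KO, and RNA-Seq reads of 1717 and 1328 and of 1603 and 1262. The groups overlapped in both assays and its TE difference was -0.0047. Ap2a1, an alpha subunit that binds membrane lipid, lies on chromosome 7 from 52155743 to 52184866 on the minus strand and its coding exons are overlapped by Fuz on the plus strand. It had footprints of 2874 and 2501 in WT and 2979 and 2412 in LRRK2 KO. Its RNA-Seq reads were 3529 and 3436 in WT and 3341 and 3303 in LRRK2 KO, both KO libraries just below both WT libraries, with a TE difference of 0.07. Ap2m1, the medium chain that reads tyrosine-based sorting signals, lies on chromosome 16 from 20535551 to 20544982 on the plus strand and had footprints of 3537 and 3302 in WT and 3407 and 3174 in LRRK2 KO, and RNA-Seq reads of 5565 and 4177 and of 6222 and 4215. Its groups overlapped and the TE difference was -0.15.

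Dnm1, the GTPase of vesicle fission, had footprints of 8815 and 7871 in WT and 8667 and 7272 in LRRK2 KO. Its RNA-Seq reads were 10214 and 6888 in WT and 8271 and 6669.8 in LRRK2 KO, so that the groups overlapped in both assays, with a TE difference of 0.13. Sh3gl2 had footprints of 1753 and 1221 in WT and 1579 and 1167 in LRRK2 KO, and RNA-Seq reads of 1422 and 947 and of 1073 and 840.0. For endophilin A1, too, the groups overlapped, and the TE difference was 0.19. Sh3gl1, the least abundant of the 8 per kb, lies on chromosome 17 from 56156176 to 56176058 on the minus strand and had footprints of 193 and 157 in WT and 243 and 138 in LRRK2 KO and RNA-Seq reads of 195 and 329.6 and of 218 and 299. Its footprint values came from 145 and 202 reads in WT and 174 and 201 in LRRK2 KO, and its TE difference was 0.14.

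**Figure D2:**
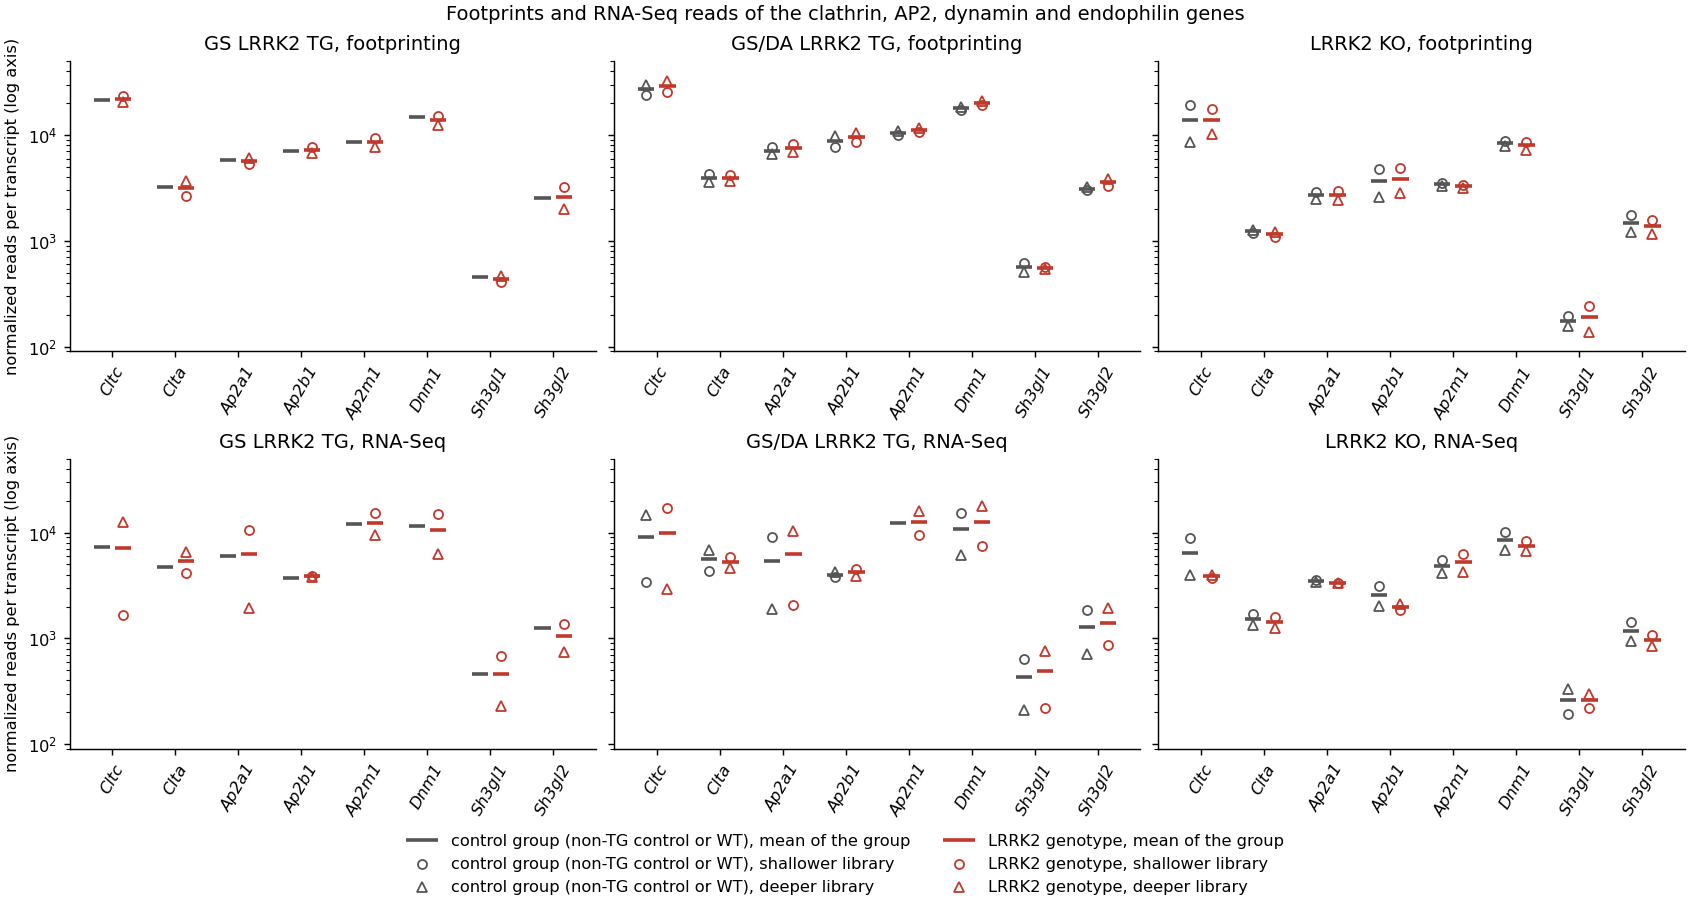
Normalized footprint and RNA-Seq reads of the 8 genes on a log axis, by table, with a bar for the mean of each group, circles for shallower and triangles for deeper libraries. In the knockout table the circle of Cltc RNA-Seq in WT, at 8909 reads, stands above the other 3 libraries, and in both transgenic tables the RNA-Seq libraries of a group lie far apart for Cltc and Ap2a1.

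Counted by separation, 0 of 8 genes had both KO footprinting libraries above both WT libraries, beside 6.22% of 9533 transcripts, and 0 had both below, beside 6.40%. In RNA-Seq 0 lay above, beside 7.04%, and 1 below, Ap2a1, beside 7.03%. limma with Benjamini-Hochberg adjustment, fitted on all recovered transcripts with n = 2 a group, called 0 transcripts and 0 of the 8 genes at 0.05 in footprints, RNA-Seq or TE, which is 0% of 9533, 9533 and 9530. At an unadjusted p under 0.05 it called 6 transcripts in footprints (0.0629%), 7 in RNA-Seq (0.0734%) and 2 in TE (0.0210%), none of them among the 8 genes. Without 1 library these unadjusted counts ran from 5 to 17 in footprints, highest without the shallower WT footprinting library. They ran from 4 to 227 in RNA-Seq and from 0 to 142 in TE, both highest without the deeper WT RNA-Seq library, at which Cltc was among the 227 in RNA-Seq. On the limma scale, the mean of the logs, Cltc differed by -0.62 (SE 0.444) in RNA-Seq and by 0.69 (SE 0.750) in TE. With library pair as a block, limma called 9 transcripts in footprints, 12 in RNA-Seq and 0 in TE, none of them among the 8 genes. At an unadjusted p under 0.05 the block gave 250 of 9533 in footprints, 407 of 9533 in RNA-Seq and 173 of 9530 in TE. Cltc was among those in RNA-Seq (SE 0.242) and in TE (SE 0.269), although its RNA-Seq reads were lower in KO only between the shallower libraries. The p-values of the fits without the block measure only the spread between libraries. Those with the block measure the spread left after the difference between pairs is taken out, and the pairs were matched from the data.

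The GS/DA comparison asks what the overexpressed protein does without kinase activity. Of the 8 genes, 0 were TE up, beside 3.65% of 8576 transcripts, and 0 TE down, beside 7.36%. In footprints 2 of 8, Dnm1 and Sh3gl2, had both GS/DA libraries above both control libraries, beside 12.0% of 8430 transcripts, and 0 had both below, beside 12.3%. In RNA-Seq 0 of 7 lay above, beside 1.78% of 8484, and 0 below, beside 1.60%. The RNA-Seq libraries of Ap2m1 in the non-TG control could not be separated, which leaves 7 there.

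Dnm1 lies on chromosome 2 from 32163991 to 32208849 on the minus strand. Its footprints were 17289 and 18415 in the non-TG control and 19386 and 20748 in GS/DA LRRK2 TG. The higher control library stood below the lower GS/DA library, and the change was 0.17 on the log2 scale. RNA-Seq of Dnm1 was 15478 and 6127 in the control and 7502 and 17920.4 in GS/DA LRRK2 TG, where the spread within each group exceeded that between the means, and the TE difference was -0.07. Between RNA-Seq libraries of like kind the change of Dnm1 was 0.21 and 0.29, higher in GS/DA LRRK2 TG in both pairs. Sh3gl2 lies on chromosome 4 from 84851030 to 85285099 on the plus strand and had footprints of 2994 and 3194 in the control and 3331 and 3847 in GS/DA LRRK2 TG, a change of 0.21. Its RNA-Seq reads were 1848 and 706 and then 860.4 and 1928, which overlapped, and its TE difference was 0.09. Between RNA-Seq libraries of like kind the change of Sh3gl2 was 0.06 and 0.28. Without the deeper GS/DA footprinting library the footprint change of Sh3gl2 was 0.11.

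Markers of cortical projection neurons, of which Slc17a7, Tbr1 and Neurod6 of 5 were listed, moved with the same libraries. Their footprints, led by Slc17a7, summed to 1056 and 1629.5 in the control and 2574 and 4104 in GS/DA LRRK2 TG, both above both controls, and their RNA-Seq reads to 1965 and 915 and to 2408 and 4030.5. Their part in the footprints of Dnm1 and Sh3gl2 was not tested.

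Cltc footprints were 24075 and 29892 in the non-TG control and 25700.2 and 32683 in GS/DA LRRK2 TG, a change of 0.11 with a TE difference of -0.03, which was 0.0037 with libraries scaled to the same median and 0.11 as a mean of logs. Clta had footprints of 4320.2 and 3608 and then 4173 and 3665, RNA-Seq reads of 4294 and 6906 and then 5872 and 4646, and a TE difference of 0.07. Both chains overlapped between the groups. Ap2a1 had footprints of 7662 and 6568 in the control and 8299 and 6911 in GS/DA LRRK2 TG, with a TE difference of -0.09. For Ap2b1 they were 7727 and 9729 in the control and 8564 and 10484 in GS/DA LRRK2 TG, and for Ap2m1 9905 and 10949 and then 10639.8 and 11679.6. For each of these AP2 subunits the groups overlapped while both GS/DA libraries lay above the control library of like kind. The TE differences of Ap2b1 and Ap2m1 were 0.06 and 0.06. Sh3gl1 had footprints of 613 and 511 in the control and 565 and 539 in GS/DA LRRK2 TG, which overlapped, RNA-Seq reads of 644 and 211 and then 219 and 755, and a TE difference of -0.21.

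limma with Benjamini-Hochberg adjustment called 0 transcripts in footprints, RNA-Seq or TE, 0% of 8430, 8484 and 8398, and thus 0 of 8 genes in footprints and 0 of 7 in RNA-Seq and TE, where Ap2m1 was not fitted. At an unadjusted p under 0.05 it called 142 transcripts in footprints (1.68%), 0 in RNA-Seq (0%) and 0 in TE (0%), and none of these genes. Dnm1 differed by 0.17 (SE 0.112) and Sh3gl2 by 0.21 (SE 0.121) in footprints on the limma scale. Leaving out 1 library changed the number of transcripts called in footprints from 0 to 19 without the shallower control library, 39 without the deeper control library, 23 without the shallower and 2 without the deeper GS/DA library, none of them among the 8 genes. With library pair as a block, limma called 150 of 8430 transcripts in footprints, among them Dnm1 at 0.17 (SE 0.0359, adjusted p = 0.0475, higher in both pairs). At an unadjusted p under 0.05 it called 1291 of 8430, with Cltc, Ap2b1, Ap2m1, Dnm1 and Sh3gl2 among them. With a correction for GC content in the same fit, an alternative chosen after seeing the data, limma called 355 of 8284 transcripts. Among them were Cltc at 0.16 (SE 0.0420, adjusted p = 0.0184), Dnm1 at 0.15 (SE 0.0438, adjusted p = 0.0376) and Sh3gl2 at 0.23 (SE 0.0611, adjusted p = 0.0243), each higher in both pairs. Over the 15 limma fits of footprints, the adjusted p ran from 0.0184 to 1.00 for Cltc, from 0.0376 to 1.00 for Dnm1 and from 0.0243 to 1.00 for Sh3gl2. The pairs were matched from the data and not from labels.

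Leaving out a single RNA-Seq library changed these TE calls. Without the shallower control RNA-Seq library Ap2a1 was TE down (z score -1.82), without the shallower GS/DA RNA-Seq library Cltc was TE up (1.62), and without the deeper GS/DA RNA-Seq library Ap2a1 was TE up (1.60). No other library changed a TE call when left out, among the 7 genes other than Ap2m1, whose control RNA-Seq libraries are not known.

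The GS comparison asks what overexpressed G2019S LRRK2, a mutant with raised kinase activity, does beside mice without a transgene. The samples hold no group that overexpresses LRRK2 without the mutation, so overexpression and mutation cannot be told apart. Of the 8 genes, 0 were TE up, beside 8.01% of 8576 transcripts, and 0 TE down, beside 3.91%. The value farthest above 0 was that of Sh3gl2 and the farthest below that of Clta. The single control libraries are not known, so the control is given as a mean and no test was run.

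Sh3gl2 footprints had a control mean of 2549 and were 3209 in the shallower and 2005 in the deeper GS library, on both sides of that mean. Its RNA-Seq control mean was 1249 and the GS libraries held 1375 and 742. The TE difference of endophilin A1 was 0.27 with a z score of 1.02. It was -0.11 without the shallower footprinting library, 0.57 without the deeper one, at which Sh3gl2 was TE up (z score 1.80), 0.78 without the shallower RNA-Seq library and -0.11 without the deeper. Footprints of the 3 cortical projection neuron markers summed to 2302 and 431 in these footprinting libraries, beside a control mean of 1612, and were higher in the library where Sh3gl2 was higher. In RNA-Seq these markers summed to 732 and 1410 in the GS libraries, beside a control mean of 1851. There they were lower in the library where Sh3gl2 was higher. Their part in its values was not tested.

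Clta lies on chromosome 4 from 44017324 to 44045718 on the plus strand. Its footprints had a control mean of 3203 and were 2668 and 3683 in the GS libraries, and its RNA-Seq reads 4744 in the control and 4173 and 6529 in GS. Its TE difference was -0.19 with a z score of -1.10. That was -0.44 without the deeper GS footprinting library, where Clta was TE down (z score -1.60), 0.03 without the shallower, -0.47 without the shallower RNA-Seq library and 0.17 without the deeper. Cltc footprints were 21514 in the control and 23252 and 20334 in GS, and its TE difference of 0.04 rested on RNA-Seq libraries of 1670.5 and 12605 beside a control mean of 7239.8. Without the deeper GS RNA-Seq library Cltc was TE up (z score 1.61), and without the shallower Ap2a1 was TE up (z score 1.75).

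The AP2 subunits Ap2a1, Ap2b1 and Ap2m1 had TE differences from -0.07 to -0.03. Ap2a1 footprints were 5804 in the control and 5365 and 6045 in GS, and its RNA-Seq reads 6056 in the control and 10527 and 1932 in GS. Ap2b1 had 7124 footprints in the control and 7780.3 and 6736 in GS, with RNA-Seq reads of 3713, 3922 and 3799. In Ap2m1 the footprints were 8518 and then 9316 and 7745, the RNA-Seq reads 12033 and then 15226 and 9542, and the TE difference -0.04. In each the control mean lay between the GS libraries, except for Ap2b1 RNA-Seq, where it lay below both. Dnm1 footprints were 14779 in the control and 15202 and 12408 in GS, RNA-Seq reads 11609, 14880.5 and 6318, and the TE difference 0.03. Sh3gl1 stood at 452 footprints in the control and 409 and 467 in GS, with RNA-Seq reads of 460.1, 685 and 230.2 and a TE difference of -0.04. For both, too, the control mean lay between the GS libraries in each assay.

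**Figure D3:**
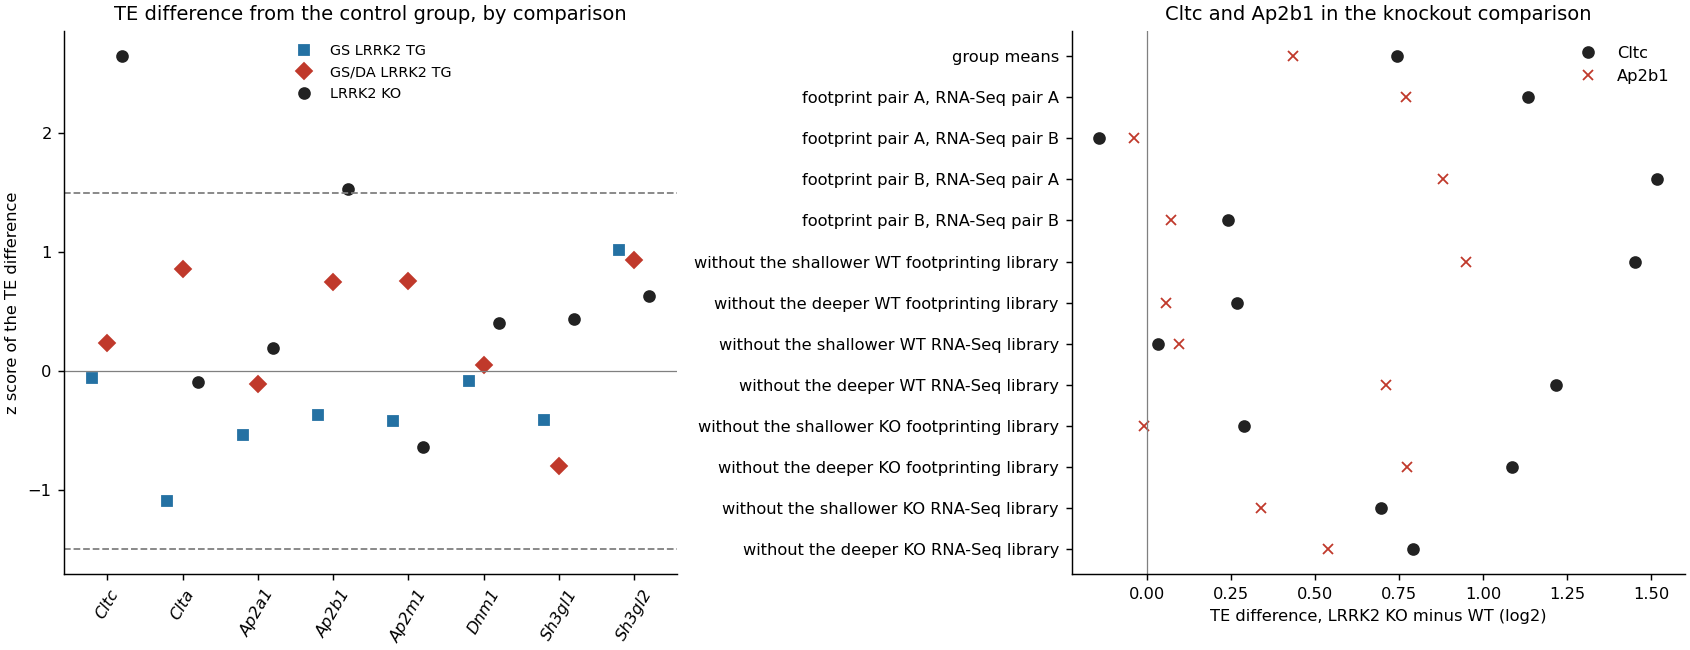
The z score of the TE difference of each gene in each comparison, with dashed lines at 1.5 and -1.5 (first panel), and the log2 TE difference of Cltc and Ap2b1 between LRRK2 KO and WT from group means, within library pairs and without each library in turn (second panel). Cltc and Ap2b1 pass the upper line in the knockout comparison, at 2.65 and 1.53, and lie near 0 without the shallower WT RNA-Seq library, at 0.03 and 0.10.

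Side by side, the 8 TE differences ran from -0.19 to 0.27 in the GS comparison, with a median of -0.03 beside 0.02 over all transcripts. They ran from -0.21 to 0.09 in the GS/DA comparison, with a median of 0.01 beside -0.05, and from -0.15 to 0.74 in the knockout comparison, with a median of 0.13 beside 0.02. The median footprint change of the 8 was -0.0051, 0.11 and -0.03 in the same order, and the median RNA-Seq change 0.02, 0.14 and -0.14. Over all transcripts these medians were 0.0034, -0.0068 and 0.02 for footprints and -0.02, 0.06 and 0.0075 for RNA-Seq. Leaving out each library in turn changed the sign of the TE difference at least once for 8 of 8 genes in the GS comparison, 7 of 7 in the GS/DA comparison and 7 of 8 in the knockout comparison, where Cltc kept its sign. The GS and GS/DA comparisons share the non-TG control group by their labels, but their control means differed. Control footprints of Lrrk2 were 2524 in the GS and 1335 in the GS/DA table, and those of Cltc 21514 and 26984. Which libraries stand behind each control mean is not stated. The difference between comparisons was not tested.

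The coding sequences of the 8 genes ran from 44.0% GC in Cltc to 58.1% in Clta, Ap2a1 and Dnm1, beside a median of 52.8% over transcripts. The deposited, predicted folding energy of the 5' untranslated region, the lowest over isoforms, was -285.5 kcal/mol for Clta, lower than in all but 10.4% of transcripts, and ran from -71.4 for Ap2a1 to -43.1 for Ap2b1 among the other 7, which all lay above the median of -91.2 in the transgenic tables.

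Likeness was measured as the Euclidean distance over 6 log2 changes, footprints and RNA-Seq in each of the 3 tables, among 1675 transcripts with group means of at least 500. Nearest to Cltc were Gapdh at 0.116, Gpm6a at 0.209 and Rab3c at 0.232. Each of these 3 shared the lower RNA-Seq mean in LRRK2 KO, with changes of -0.76, -0.55 and -0.57. That change is part of the distance by which they were picked. Nearest to Dnm1 were mKIAA0968 at 0.127, Fscn1 at 0.142 and Trim32 at 0.144. Nearest to Sh3gl2 were Smap1 at 0.181, Syn1 at 0.187 and Aak1 at 0.190, where Syn1 encodes a synaptic vesicle protein and Aak1 a kinase of AP2.

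A list of 46 other genes of clathrin-mediated endocytosis held 39 in each transgenic table and 40 in the knockout table. In the knockout comparison 1 of 40 was TE up, the brain dynamin Dnm3 at 0.49 (z score 1.73), whose RNA-Seq change was -0.52 and footprint change -0.03, and 2 were TE down, the AP2-binding protein Necap2 at -0.44 (z score -1.69) and the sorting nexin Snx9 at -0.44 (z score -1.67), beside 6.23% of all transcripts TE up and 6.02% TE down. The highest after Dnm3 was Reps2 at 0.41. The median TE difference of the list was 0.01 beside 0.02 over all transcripts, and 21 of 40 lay above 0. The count of 3 was 0 without the deeper WT, the shallower KO or the deeper KO footprinting library, and 1 without the shallower KO RNA-Seq library. It was 2 without the shallower WT footprinting library and 4 without the shallower WT RNA-Seq library.

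In the GS/DA comparison 2 of 39 were TE up, the sorting nexin Snx18 at 0.21 (z score 1.65) and the lipid kinase Pik3c2a at 0.27 (z score 2.01), and 1 was TE down, the scaffold Itsn2 at -0.54 (z score -2.68), with an RNA-Seq change of 0.63. Over all transcripts 3.65% were TE up and 7.36% TE down. Of the rest, endophilin B1, encoded by Sh3glb1, was lowest at -0.33. The median was -0.0019 beside -0.05 over all transcripts, and the count of 3 was 1 without the deeper GS/DA RNA-Seq library and 2 without the deeper control footprinting or the shallower control RNA-Seq library. In the GS comparison 3 of 39 were TE up, the membrane-bending Fcho2 at 0.40 (z score 1.59), Sh3glb1 at 0.46 (z score 1.88) and Itsn2 at 0.49 (z score 2.01), and 0 were TE down, the lowest being Pip5k1c at -0.27 and Hip1r at -0.24, beside 8.01% TE up and 3.91% TE down over all transcripts. That count was 2 without the shallower and 1 without the deeper footprinting library, 1 without the shallower RNA-Seq library and 6 without the deeper. The median was -0.02 beside 0.02 over all transcripts. Itsn2 and Sh3glb1 had TE differences of -0.23 and -0.02 in the knockout comparison.

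The adaptor complexes of other membranes, a list of 20 genes, held 18 in each transgenic table and 19 in the knockout table. In the knockout comparison 0 of 19 were TE up and 2 TE down, Ap4e1 at -0.45 (z score -1.73) and Gga1 at -0.42 (z score -1.61), beside 6.23% and 6.02% of all transcripts, while Ap3m1 was highest at 0.39 and Ap4m1 followed at 0.34. The count of 2 was 4 without the shallower WT footprinting library, 1 without the deeper WT footprinting, either WT RNA-Seq, the shallower KO footprinting or the shallower KO RNA-Seq library, and 0 without the deeper KO footprinting or the deeper KO RNA-Seq library. In the GS/DA comparison 0 of 18 were TE up and 1 TE down, Ap3m1 at -0.36 (z score -1.64), beside 3.65% and 7.36% of all transcripts, followed by Ap1s2 at -0.25, with Ap1m1 at 0.12 and Gga3 at 0.10 the highest. That count was 0 without the deeper control footprinting, the deeper control RNA-Seq, the shallower GS/DA footprinting or the shallower GS/DA RNA-Seq library. In the GS comparison 2 of 18 were TE up, Ap1s2 at 0.44 (z score 1.80) and Ap3m1 at 0.83 (z score 3.61), and 0 TE down, beside 8.01% and 3.91% of all transcripts, with Ap1b1 at -0.13 and Ap3s2 at -0.10 the lowest. It was 1 without the shallower footprinting or either RNA-Seq library and 3 without the deeper footprinting library. Without 1 library, 11.1 to 12.9% of all transcripts were TE up or TE down in the knockout, 8.60 to 11.8% in the GS/DA and 9.47 to 11.4% in the GS comparison. The median TE difference of these adaptors was 0.04, 0.0077 and -0.02 in the knockout, GS/DA and GS comparisons.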

How the data were processed

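Ribosome footprinting and RNA-Seq of mouse dorsal striatum gave 3 deposited tables of gene-level signal, in which the authors list, per transcript, normalized reads in coding sequence as a mean per group, normalized separately in each table. Per the submitters' processing notes, reads were mapped to mm9 with TopHat2 2.0.11 and Bowtie2 2.2.2, after CASAVA 1.8, and analyzed with DESeq 1.20. The authors' columns of TE, its difference and its z score were not used. TE differences and z scores were recomputed from the means. A mean of 2 libraries is a sum of whole reads over 2 size factors, and in 10 of 12 columns from 98.55 to 99.88% of transcripts fitted such sums, beside 0.12 to 1.35% after the values were shifted. In the GS table the columns of the control could not be recovered. The recovery and the limma fit were tested on simulated data. limma fits used log2 of reads plus 10 and Benjamini-Hochberg adjustment over all transcripts of a table at 0.05, with TE as the interaction of genotype and assay (R 4.3.3, limma 3.58.1, Python 3.11.15, pandas 2.3.3, numpy 2.4.6, statsmodels 0.14.6). edgeR and DESeq2 were not used. Transcripts were matched to an mm9 annotation for 98.251% (transgenic tables) and 98.138% (knockout table). Alternatives were another pseudocount, the mean of logs, z from median and MAD, cutoffs of 1 and 2, a pair of minimum means, the higher of 500, libraries scaled to the same median, correction for GC content, library pairs, and leaving out each library. The members and lists were chosen with earlier results of these data known. Named by rule were all members, list genes TE up or TE down with the 2 highest and 2 lowest per comparison, and the 3 nearest transcripts to Cltc, Dnm1 and Sh3gl2. Outside that rule mKIAA4114 was named after its values were seen, as were list genes in a comparison where they were not called. Footprinting samples of ventral midbrain, 1 each of WT and LRRK2 KO, had no column and were not used.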

Additional observations from a re-analysis of the deposited data

How the results depend on the processing

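No paired analysis was possible because the deposited columns carry no replicate numbers to pair samples by label, and the pair values below use library pairs matched from the data. Without 1 library, a group of 1 is assumed in limma to vary like the others. For every result that changed, the cause was not tested. Of TE differences, 15 of 32 in GS, 23 of 56 in GS/DA and 19 of 64 in LRRK2 KO changed sign without 1 library, among them Ap2b1, TE up in LRRK2 KO, at -0.0069 in a range up to 0.95. Within pairs 7 of 28 did in GS/DA and 6 of 32 in LRRK2 KO. The mean of logs, a common median and the GC correction each changed the sign of Cltc in GS/DA, and the GC correction that of Clta in LRRK2 KO. A pseudocount of 10 changed no sign. Minimum means, z from MAD and other cutoffs can change only calls. Percentages are shares of all transcripts called in the same setting.

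Without 1 library, in the GS, GS/DA and knockout comparisons, genes TE up among the 8 ran from 0 to 1, 0 to 1 and 0 to 2, and TE down from 0 to 1, 0 to 1 and 0 to 0. Of all transcripts, 6.43 to 9.43%, 0.0357 to 8.38% and 2.38 to 8.85% were TE up in the same order. The shares TE down were 0.0351 to 4.91%, 0.214 to 9.30% and 2.73 to 8.68%. Other endocytosis genes called ran from 1 to 6 of 38 or 39, 1 to 3 of 38 and 0 to 4 of 39, and adaptor genes from 1 to 3 of 18, 0 to 1 of 18 and 0 to 4 of 19, beside 9.47 to 11.4%, 8.60 to 11.8% and 11.1 to 12.9%. Transcripts called by limma in GS/DA footprints ran from 0 to 39, and in all other limma tests from 0 to 0.

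With the GC correction the adaptor count in GS/DA was 0 of 18 (12.1%) and the endocytosis count in LRRK2 KO 5 of 39 (12.6%). With the mean of logs the adaptor count in GS/DA was 0 of 18 (12.1%). A pseudocount of 10 gave endocytosis counts of 4 of 39 in GS (11.9%) and 4 of 40 in LRRK2 KO (12.6%). With z from median and MAD they were 4 of 39 in GS (15.6%), 4 of 39 in GS/DA (18.2%) and 4 of 40 in LRRK2 KO (14.8%). At the lower minimum mean the adaptor count was 1 of 16 in GS (11.8%) and 1 of 11 in LRRK2 KO (12.4%), and at 500 it was 0 of 12 in GS (11.2%), 0 of 13 in GS/DA (9.91%) and 1 of 6 in LRRK2 KO (13.5%). The endocytosis count at the lower minimum mean was 3 of 35 in GS, 3 of 35 in GS/DA (10.8%) and 3 of 26 in LRRK2 KO. At 500 it was 4 of 27 in GS (11.2%), 2 of 31 in GS/DA (9.91%) and 4 of 17 in LRRK2 KO (13.5%). With a cutoff of 1, 1 of the 8 genes was TE up (Sh3gl2, 15.6%) and 1 TE down (Clta, 12.9%) in GS, endocytosis counts were 10 of 39 in GS (28.5%), 7 of 39 in GS/DA (24.8%) and 7 of 40 in LRRK2 KO (29.1%), and adaptor counts 4 of 18 in GS/DA and 6 of 19 in LRRK2 KO. With a cutoff of 2, 1 of the 8 was TE up in LRRK2 KO (Cltc, 2.90%), endocytosis counts were 1 of 39 in GS (4.73%) and 0 of 40 in LRRK2 KO (5.07%), and adaptor counts 1 of 18 in GS, 0 of 18 in GS/DA (5.21%) and 0 of 19 in LRRK2 KO.

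Footprinting A with RNA-Seq A gave 1 of 7 TE down in GS/DA (Sh3gl1, 3.61%) and adaptor counts of 0 of 18 in GS/DA (11.5%) and 0 of 19 in LRRK2 KO (12.8%). Footprinting A with RNA-Seq B gave an endocytosis count of 1 of 38 and an adaptor count of 0 of 18 in GS/DA (11.04%), 1 of 8 TE up in LRRK2 KO (Sh3gl1, 6.40%), and reversed TE differences of Cltc at -0.14 and Ap2b1 at -0.038 there. Footprinting B with RNA-Seq A gave an endocytosis count of 5 of 38 and an adaptor count of 0 of 18 in GS/DA (9.23%). Footprinting B with RNA-Seq B gave 0 of 8 TE up (6.00%) and an adaptor count of 1 of 19 (12.1%) in LRRK2 KO.

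With library pair as a block, limma called 1 of the 8 genes and 150 of 8430 transcripts in GS/DA footprints, and 1 of 8484 in GS/DA RNA-Seq. In LRRK2 KO it called 9 of 9533 in footprints and 12 of 9533 in RNA-Seq. With the GC correction as well, chosen after seeing the data, it called 3 of the 8 genes and 355 of 8284 transcripts in GS/DA footprints. It also called 1 of 8254 in GS/DA TE, 16 of 9365 in LRRK2 KO footprints and 7 of 9366 in LRRK2 KO RNA-Seq. The limma tests, mean of logs, common median, GC correction and pairs were not run for GS. The control RNA-Seq mean of Ap2m1 in the GS/DA table was matched by 2 pairs of whole reads, so Ap2m1 has no limma value in RNA-Seq or TE there.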

Other observations

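A transcript listed as mKIAA0899, which the deposited description gives as the AP-2 alpha 2 subunit, was left out of the counts because its symbol is not among those chosen. Its TE difference was -0.05 in the GS, -0.00091 in the GS/DA and 0.05 in the knockout comparison. A transcript listed as mKIAA4114, described as the assembly protein Picalm and chosen after its values were seen, had TE differences of 0.39 (TE up), -0.25 and 0.19 in the same order. In GS its RNA-Seq reads were 725 in the shallower and 2803 in the deeper library, on both sides of the control mean of 2162. The GS RNA-Seq mean used in the TE up call is thus a mean of unlike libraries, and their part in the call was not tested.

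Of 4 choroid plexus markers only Ttr was listed. Its footprints were 1037 and 408 in the shallower and deeper GS library beside a control mean of 3944. In the GS/DA table they were 17056 and 1193 in the control and 1137 and 5162 in GS/DA LRRK2 TG, where 1 control library carries the control mean. In the knockout table they were 87.9 and 81.0 in WT and 18.2 and 165 in LRRK2 KO. The 3 listed red blood cell markers of 6, led by Hba-a2, had summed footprints of 11145 and 17771 in GS beside a control mean of 15389. In the GS/DA table the sums were 18874 and 25199 in the control and 14656 and 20612 in the GS/DA group. The knockout table had 1364 and 5375 in WT, the deeper library being the high one, and 1537 and 2716 in LRRK2 KO. In the transgenic tables the astrocyte markers summed to 29391 and 30801 (GS) and 36650.3 and 38854 (GS/DA) in mean footprints, and the microglia markers to 2582 and 2732 and to 3155 and 3441, control first. The 5 cortical projection neuron markers of the knockout table, led by Slc17a7, summed in RNA-Seq to 4745 and 2610.1 in WT and 4115 and 2029.9 in LRRK2 KO.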
